A study of Mus musculus with 5 samples.

Results

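The marrow niche stromal genes described here are 9 genes, taken as every transcript whose gene symbol was Cxcl12, Vcam1, Kitl, Lepr, Col1a1, Col1a2, Col3a1, Sparc or Igfbp4. They accounted for 13 of the 26531 transcripts in the table and 9 of its 22098 gene symbols. The genes were measured in 5 RNA-seq libraries of cells sorted from C57BL/6 mouse bone marrow as Hardy fraction A, the earliest B lineage fraction, without removing other lineages first. The mice were 6 to 7 weeks old. The study asked what Ikaros, the Ikzf1-encoded DNA-binding regulator of lymphocyte formation, does in several blood lineages. The groups were Ikaros_ZnF4-/- (dF4, 1 library, which the submitters describe as low in coverage), Ikaros_ZnF1-/- (dF1, 2 libraries) and wild type (wt, 2 libraries). The labels name the mutated zinc finger and give no other allele, and do not state whether each wt library is a different mouse or whether animals were pooled.

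In bone marrow, blood cell precursors live beside non-blood stromal cells. Perivascular stromal cells that carry the leptin receptor (Lepr) secrete the chemokine Cxcl12 and stem cell factor (Kitl), which retain and sustain stem cells and early B cell precursors. Vcam1 on stromal cells and on marrow macrophages binds integrins of blood cells. Osteoblasts, which build bone, lay down type I collagen (Col1a1 and Col1a2) with the matrix protein Sparc.

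The values are RPKM, read numbers divided by transcript length and library size, so levels can be compared between genes. The table gives them to 1 decimal, and a listed 0 means less than 0.05 RPKM. Summed RPKM was 345446 in dF4, 298855 and 307910 in dF1 and 306100 and 286080 in wt. In dF4 the low values fell on whole multiples of 1.674 RPM (length-corrected RPKM) in 83.8% of 3424 cases, with a tolerance of 0.1 read, giving a depth of about 597000 reads. No such step was found in the dF1 and wt libraries, whose depth is unknown. In dF4 a listed 0 can be a low level that drew no read, the more so for short transcripts. Each dF4 value of a member comes with an exact 95% Poisson interval from its estimated number of reads, which covers only counting error. Values of other genes carry no interval, and at 1.674 RPM per read the low ones in dF4 rest on few reads. The label of sorted proB cells was set against marker lists. The 9 plasmacytoid dendritic cell markers summed to 878 RPKM in dF4, against 4276 to 4952 in dF1 and 4931 to 5598 in wt. The 11 early B lineage markers, which include the sort antigens Spn and Ptprc, summed to 1606 RPKM in dF4, against 872 to 897 in dF1 and 764 to 1008 in wt. The 10 neutrophil markers summed to 32928 RPKM in dF4, against 216 and 828 in dF1 and 392 and 1048 in wt.

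Promoters of 4 members are shown because these genes carry the patterns described below: Cxcl12 and Igfbp4 had the largest dF4 values, and Sparc and Col1a2 were high in dF4 and in 1 wt library. The windows run from 250 bases before to 50 bases after the RefSeq start, on build GRCm38.p6, and 7 of the 9 genes were matched. Capitals mark the GC box (GGGCGG), the CCAAT box (CCAAT) and the TATA box (TATAAA), searched on both strands.
Cxcl12, chr6:117168285-117168584, plus strand: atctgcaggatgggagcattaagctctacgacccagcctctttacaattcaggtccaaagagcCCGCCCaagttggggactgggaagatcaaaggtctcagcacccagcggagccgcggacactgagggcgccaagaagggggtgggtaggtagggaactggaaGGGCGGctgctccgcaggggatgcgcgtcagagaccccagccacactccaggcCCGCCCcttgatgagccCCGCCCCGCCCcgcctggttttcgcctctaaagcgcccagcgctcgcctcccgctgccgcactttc
Igfbp4, chr11:99040994-99041293, plus strand: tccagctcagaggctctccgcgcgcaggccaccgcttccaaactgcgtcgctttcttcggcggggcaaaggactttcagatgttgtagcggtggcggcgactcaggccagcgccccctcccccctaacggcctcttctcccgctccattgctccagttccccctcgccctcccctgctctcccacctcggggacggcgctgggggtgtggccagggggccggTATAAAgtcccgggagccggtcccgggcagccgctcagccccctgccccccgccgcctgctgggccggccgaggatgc
Sparc, chr11:55420031-55420330, minus strand: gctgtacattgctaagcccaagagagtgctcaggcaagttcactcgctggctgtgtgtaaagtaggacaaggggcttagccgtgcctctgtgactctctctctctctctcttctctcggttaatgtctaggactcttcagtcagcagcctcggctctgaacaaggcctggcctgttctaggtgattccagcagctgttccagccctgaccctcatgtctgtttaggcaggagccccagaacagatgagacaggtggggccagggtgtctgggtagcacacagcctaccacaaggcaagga
Col1a2, chr6:4505368-4505667, plus strand: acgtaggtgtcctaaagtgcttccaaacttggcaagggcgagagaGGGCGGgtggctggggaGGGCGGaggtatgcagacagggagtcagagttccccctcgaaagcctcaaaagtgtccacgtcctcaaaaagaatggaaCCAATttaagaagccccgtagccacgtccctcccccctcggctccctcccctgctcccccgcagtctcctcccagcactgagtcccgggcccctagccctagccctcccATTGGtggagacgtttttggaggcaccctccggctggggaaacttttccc
The Cxcl12 window held 5 matches to the GC box, the last 2 of which overlap, and Col1a2 held 2 GC boxes and 2 CCAAT boxes. Igfbp4 held 1 TATA box, and Sparc held no match to these letters. Of 32851 such windows in the RefSeq table, 35.7% held a GC box, 37.4% a CCAAT box and 13.6% a TATA box.

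In the single dF4 library 8 of the 9 genes were higher than in every dF1 and wt library, led by Igfbp4 and Cxcl12, and Col1a1 was the exception. Over all gene symbols, 25.5% were higher in dF4 than in all 4 other libraries. The dF4 library has no replicate, so differences from wt are given without a test. The size rule counted a gene where dF4 was above or below both wt values and at least 1 from their mean in log2(RPKM + 1), which makes changes of low genes look smaller. By this rule 8 of the 9 genes were higher and 0 were lower, where 9.1% of all 22098 symbols were higher and 6.89% lower. Among transcripts averaging 1 RPKM or more, 13.4% were higher and 12.9% lower. Of the members, 6 passed that minimum and 5 of these counted as higher, but Cxcl12 passed it only through its dF4 value. The median difference over the 9 genes was 1.93, beside 0 over all symbols. Since these are sorted bulk samples, more stromal cells, more stromal RNA per cell and transcripts carried by other cells cannot be told apart.

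**Figure D1:**
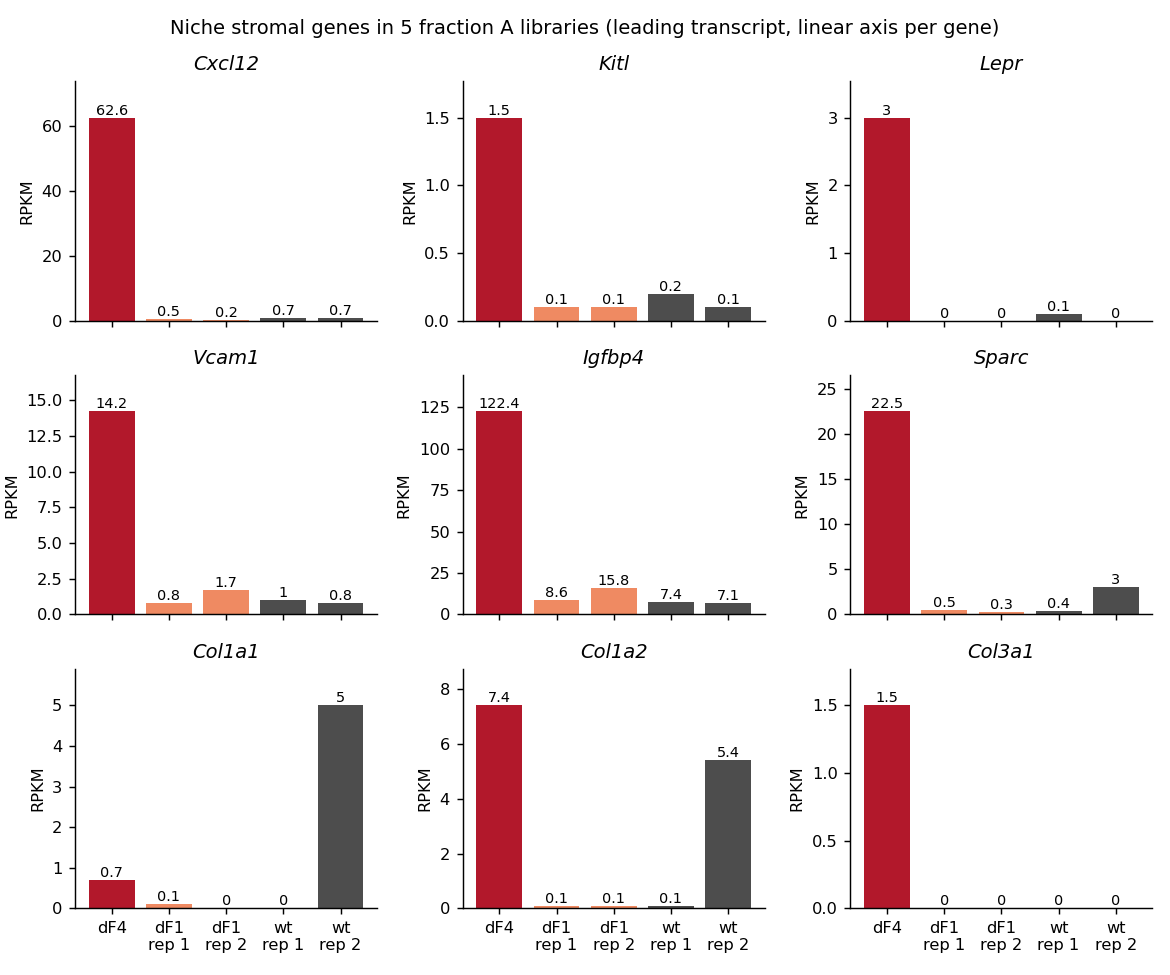
RPKM of each gene (leading transcript, the one with the highest mean) in the dF4, dF1 and wt libraries; each bar is 1 library, the y axis is linear and differs between panels. Of the genes shown, 8 are highest in dF4, and Col1a1, Col1a2 and Sparc also stand up in wt replicate 2.

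Cxcl12, the chemokine that holds precursors in the niche through its receptor Cxcr4, was at 62.6 RPKM in dF4 (95% Poisson interval 51.9 to 75.0, about 119 reads), 0.5 and 0.2 in dF1 and 0.7 and 0.7 in wt for its leading transcript NM_013655. The dF4 value was 89.4-fold above the wt mean, and all dF1 and wt values lay below 1 RPKM. The other Cxcl12 transcripts, which differ in their last exons, gave the same picture. NM_021704, which encodes the 89-residue alpha form, was at 50.8 RPKM in dF4 (38.4 to 65.7), 0.4 and 0.1 in dF1 and 0.5 and 0.6 in wt. NM_001012477, which encodes the 119-residue gamma form, was at 37.8 RPKM in dF4 (31.5 to 44.9), 0.3 and 0.1 in dF1 and 0.4 and 0.4 in wt. In GENCODE M21 the 93-residue beta form NM_013655 has 0 bases of its own and the others have 1530 and 2498, and how shared reads were counted is not given, so the 3 values are not independent and do not rank the forms. The dF4 difference on the log2(RPKM + 1) scale was 5.23.

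Kitl, the ligand of the receptor Kit, was at 1.5 RPKM in dF4 (0.498 to 3.58, about 5 reads), 0.1 and 0.1 in dF1 and 0.2 and 0.1 in wt. Its dF4 value was 10-fold above the wt mean but rests on about 5 reads. Lepr was read from 3 transcripts. NM_001122899, which encodes an 894-residue receptor, was at 3 RPKM in dF4 (1.44 to 5.54, about 10 reads), listed at 0 in both dF1 libraries and at 0.1 and 0 in wt. NM_146146, which encodes the 1162-residue long form that carries the full signalling tail, was listed at 0 in all 5 libraries, as was NM_010704. In dF4 a listed 0 allows up to 1.21 RPKM for NM_146146 and 1.47 for NM_010704 by a limit of 3 reads, and the two-sided Poisson intervals reach 1.49 and 1.80. The 3 Lepr transcripts share 3222 bases in GENCODE M21, and NM_001122899 has 2320 bases of its own, so its value beside a listed 0 in the others shows only how the table assigned about 10 reads.

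Vcam1, the adhesion molecule of stroma and marrow macrophages, was at 14.2 RPKM in dF4 (9.54 to 20.5, about 29 reads), 0.8 and 1.7 in dF1 and 1 and 0.8 in wt. The dF4 value was 15.8-fold above the wt mean and 8.35-fold above the highest other library, dF1 replicate 2. Igfbp4, a secreted protein that binds insulin-like growth factors, was the most abundant member in every library. It was at 122.4 RPKM in dF4 (103 to 143, about 151 reads), 8.6 and 15.8 in dF1 and 7.4 and 7.1 in wt, and its dF4 value was 16.9-fold above the wt mean. Unlike the other members, Igfbp4 was above 7 RPKM in all 5 libraries, whereas 4 of the members (Cxcl12, Kitl, Lepr and Col3a1) were at or below 1 RPKM in each dF1 and wt library.

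Sparc, a collagen-binding matrix protein, was at 22.5 RPKM in dF4 (15.3 to 31.9, about 31 reads), 0.5 and 0.3 in dF1 and 0.4 and 3 in wt. It was highest in dF4, and wt replicate 2 stood apart from wt replicate 1. Col1a2, the alpha 2 chain of type I collagen, was at 7.4 RPKM in dF4 (4.70 to 11.1, about 23 reads), 0.1 and 0.1 in dF1 and 0.1 and 5.4 in wt. The wt replicate 2 value lay inside the dF4 counting interval, and without that library the dF4 difference was 2.93 on the log2(RPKM + 1) scale, against 0.39 without wt replicate 1. Col1a1, the alpha 1 chain, was at 0.7 RPKM in dF4 (0.0854 to 2.55, about 2 reads), 0.1 and 0 in dF1 and 0 and 5 in wt. It was highest in wt replicate 2, and its dF4 difference was -0.53, or 0.77 without that library. Col3a1, the chain of type III collagen found in soft connective tissue, was at 1.5 RPKM in dF4 (0.484 to 3.48, about 5 reads) and was listed at 0 in both dF1 and both wt libraries.

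**Figure D2:**
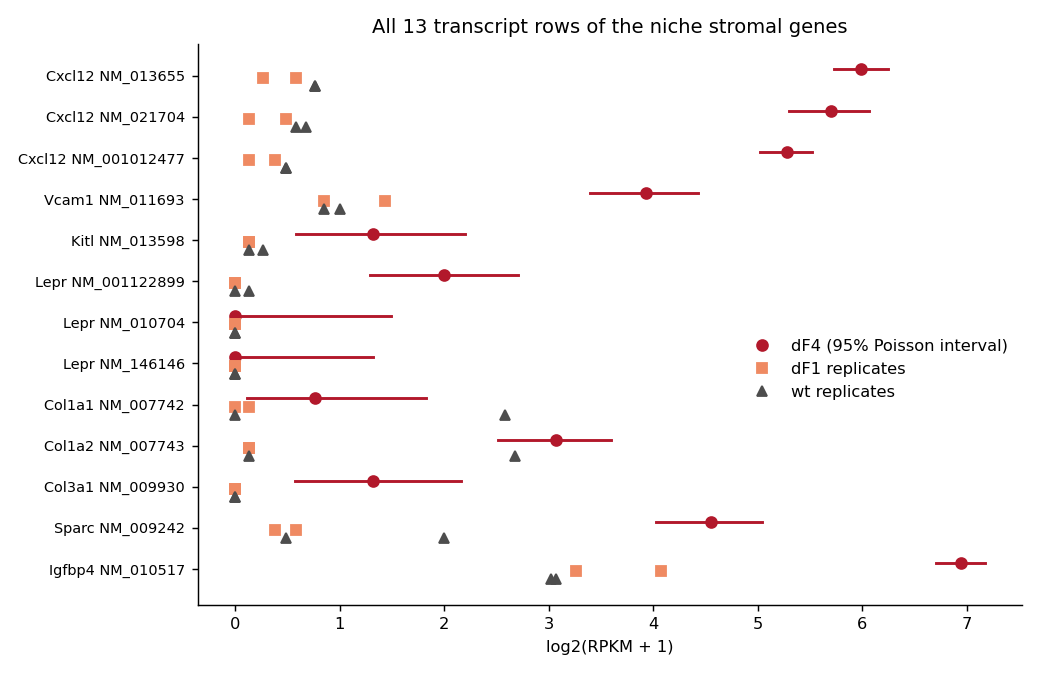
log2(RPKM + 1) of all 13 transcripts: circles with 95% Poisson intervals are dF4, squares the dF1 replicates and triangles the wt replicates. The dF4 intervals of Cxcl12, Vcam1, Sparc and Igfbp4 lie above all other libraries, while that of Col1a2 covers wt replicate 2 and that of Col1a1 lies below it. The intervals of Kitl, Col3a1 and the detected Lepr transcript also lie above all other libraries, but rest on about 5, 5 and 10 reads.

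Within dF4, by leading transcripts, Igfbp4 stood above Cxcl12 and Cxcl12 above Sparc with counting intervals that did not overlap. The interval of the Cxcl12 gamma form (31.5 to 44.9 RPKM) did overlap that of Sparc (15.3 to 31.9). Sparc and Vcam1 overlapped, as did Vcam1 and Col1a2, Col1a2 and Lepr, and the genes below them. For type I collagen the proportion of the 2 chains can be described in dF4 and wt replicate 2. In dF4, Col1a1 had about 2 of the 25 reads of both chains (8%, exact 95% binomial interval 0.984% to 26.0%, counting error only). In wt replicate 2, Col1a1 made up 45.8% of the length-weighted values of both chains (5 and 5.4 RPKM). That share has no interval, since the depth of the library is unknown, and with 1 library each the difference was not tested. The deposited Col1a1 transcript is 4749 bases long, against 5930 in GENCODE M21, and Igfbp4 is 2070 against 3831. Whether reads beyond the deposited ends affect these values was not tested.

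The wt libraries differed from each other in the bone matrix genes, while the niche factors lay close together. Col1a1, Col1a2 and Sparc were higher in wt replicate 2 than in wt replicate 1 by 2.58, 2.54 and 1.51 on the log2(RPKM + 1) scale, while Cxcl12 differed by 0 and Vcam1 by -0.15. Kitl and Igfbp4 differed by -0.13 and -0.05, and Col3a1 was listed at 0 in both. A search chosen after these values were seen took transcripts of at least 3 RPKM in 1 of the 4 dF1 and wt libraries and at least 5-fold above the other 3. It found 3 of 26531 transcripts in wt replicate 2, and they were Col1a1, Col1a2 and Sparc, of which Sparc lay at the minimum itself. With a minimum of 2 RPKM there were 4, with Mir378b added, and with 1 RPKM there were 8, with Butr1, Trpv4, Mir1956 and Mir330 added. At the minimum of 3 RPKM it found 1 in dF1 replicate 1 (the small RNA Snord38a), 4 in dF1 replicate 2, all Y-linked (Ddx3y, Eif2s3y, Kdm5d and Uty), and 1 in wt replicate 1 (Igj, the joining chain of antibodies). The 8 genes of the osteoblast list went both ways between the wt libraries. Ibsp and Bglap, which encode bone sialoprotein and osteocalcin, were both at 0.4 RPKM in wt replicate 2 and both at 0.1 in wt replicate 1, close to the rounding of the table. Spp1 was at 4.6 RPKM in wt replicate 2 and 3 in wt replicate 1, and Runx2 at 250.2 and 166.9 in the same order. Alpl, the alkaline phosphatase of osteoblasts, was lower in wt replicate 2, at 0.3 RPKM against 1.5 in wt replicate 1, and Sp7, Bglap2 and Dmp1 were listed at 0 in both. The neutrophil markers, too, were higher in wt replicate 2, and whether the 2 differences share a source was not tested.

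**Figure D3:**
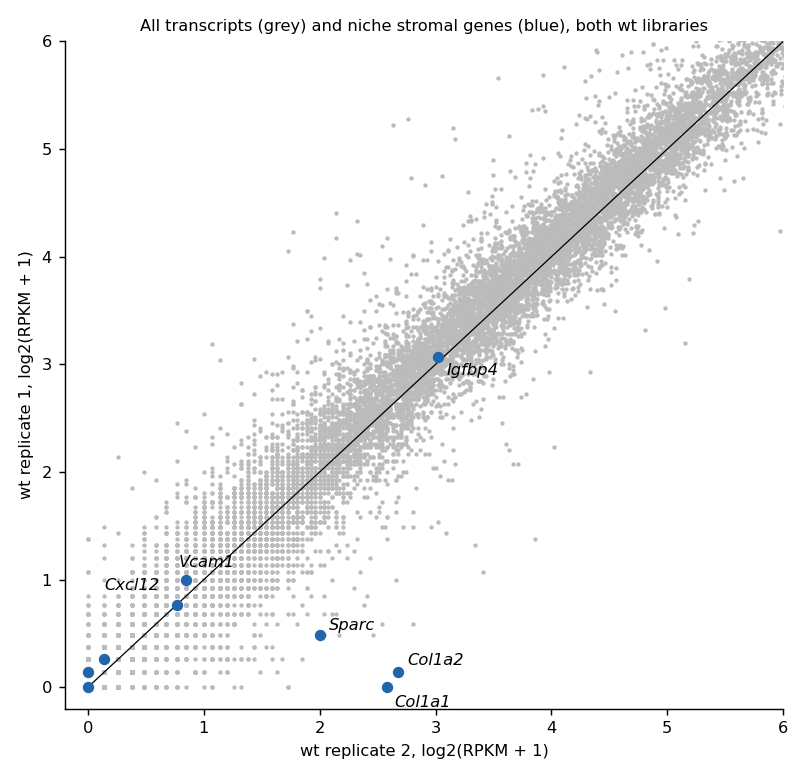
log2(RPKM + 1) of every transcript (grey) in wt replicate 2 (x axis) and wt replicate 1 (y axis), shown up to 6, with the 9 genes in blue and equal values on the line. Col1a1, Col1a2 and Sparc lie at 2.58, 2.54 and 1.51 below the line, Igfbp4, Vcam1 and Cxcl12 lie near it, and the unnamed blue points near the origin are Kitl, Lepr and Col3a1.

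Between dF1 and wt, 0 of the 8 member transcripts tested passed. Of the 8, 5 averaged at least 1 RPKM over the dF1 and wt libraries, and the other 3 were the Cxcl12 transcripts, which share sequence and entered only through dF4. Over 12215 transcripts limma called 0% at an adjusted p of 0.05 (Benjamini-Hochberg, two-sided, 2 libraries against 2), with 875 at an unadjusted p under 0.05, of which 0 were members. Igfbp4 was at 12.2 ± 5.09 RPKM in dF1 and 7.25 ± 0.212 in wt (SD, n = 2 each), with a log2 difference of 0.62 (SE 0.29, limma adjusted p = 0.743). Both dF1 libraries lay above both wt libraries, as they did for 9.87% of all symbols and 16.8% of the 12215 transcripts tested. The distance rested mainly on dF1 replicate 2. Cxcl12 was at 0.35 ± 0.212 RPKM in dF1 and 0.7 ± 0 in wt (SD, n = 2 each), with a difference of -0.34 (SE 0.17, limma adjusted p = 0.753). Both dF1 values lay below both wt values, as for 11.5% of symbols and 17.9% of transcripts tested, but all lay within 0.5 RPKM of each other. The dF1 replicate with the higher Igfbp4 and Vcam1 had the lower Cxcl12. It was dF1 replicate 2, the library set apart by the Y-linked transcripts. The part of animal sex in the dF1 comparison was not tested.

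Vcam1 overlapped between the groups (1.25 ± 0.636 RPKM in dF1 and 0.9 ± 0.141 in wt, SD, n = 2 each), with a log2 difference of 0.22 (limma adjusted p = 0.879). Its direction turned without dF1 replicate 2, to -0.076. For Col1a1, Col1a2 and Sparc the differences were -1.22, -1.27 and -0.76 (SE 0.83, 0.81 and 0.50, limma adjusted p 0.818, 0.808 and 0.810). These values rest on wt replicate 2, without which they were 0.069, 0 and -0.0037. Kitl, Lepr and Col3a1 did not reach the minimum of 1 RPKM on average and were not tested; their dF1 values were 0.1 RPKM or less. The median dF1 difference over the 9 genes was -0.07, beside 0 over all symbols.

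Other stromal genes, from a list that holds no member, were examined next. Among 22 stromal matrix genes found in the table, 17 were higher in dF4 by the size rule and 0 lower, with a median difference of 2.05. Beside this list and those below, 9.1% of all 22098 symbols were higher and 6.89% lower. Mgp, which inhibits calcification of matrix, was at 27.8 RPKM in dF4, 0 and 0 in dF1 and 0.1 and 0.2 in wt. Igfbp5, another binder of insulin-like growth factors, was at 20.9 RPKM in dF4, 0.1 and 0 in dF1 and 0.2 and 0.3 in wt. The proteoglycan Bgn was at 18.9 RPKM in dF4, 0.1 and 0 in dF1 and 0.2 and 0.3 in wt, and the complement inhibitor Serping1 at 14.6 in dF4, 0 and 0.1 in dF1 and 0.3 and 0.2 in wt. The list was not uniform, since Dcn, Lum and Postn, matrix genes of fibroblasts and periosteum, were listed at 0 in all 5 libraries. In the shallow dF4 library such a 0 leaves room for low levels. The 22 genes summed to 169 RPKM in dF4, 2.9 and 6 in dF1 and 5.7 and 7.1 in wt.

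Genes that mark stromal cell identity were mostly low even in dF4. Of 13, 5 were higher in dF4, 0 lower and 8 neither (median 0.77). Lpl, a lipase made by Lepr+ stromal cells and by macrophages, was at 13.6 RPKM in dF4, 0.2 and 0.4 in dF1 and 0.1 and 0.1 in wt. Adipoq, the adipocyte hormone that Lepr+ stroma also expresses, was at 5.4 RPKM in dF4, 0.2 and 0 in dF1 and 0.3 and 0 in wt. Hp, which encodes haptoglobin and is also made by neutrophils, was at 373.5 RPKM in dF4, 3.6 and 10.4 in dF1 and 6.5 and 11.8 in wt. Pdgfrb and Ngfr were also higher, at 4.3 and 3.4 RPKM in dF4. Pdgfrb was at 1.1 and 1.5 in dF1 and 0.9 and 1.1 in wt, and Ngfr at 0 and 0.4 in dF1 and 0.3 and 0.4 in wt. Pdgfra, Foxc1, Cspg4, Grem1 and Cxcl14 were listed at 0 in every library. Of the 8 osteoblast genes, 3 were higher in dF4 and 1 lower (median 0.38). Ibsp was at 6 RPKM in dF4, 0.2 and 0 in dF1 and 0.1 and 0.4 in wt. Bglap, Bglap2 and Dmp1 were listed at 0 in dF4. That says little for the short transcripts of Bglap and Bglap2 (354 and 475 bases) at the depth of dF4. Runx2, the osteoblast transcription factor that plasmacytoid dendritic cells also express, was at 3.9 RPKM in dF4, 145.7 and 158.5 in dF1 and 166.9 and 250.2 in wt, the opposite direction to Ibsp.

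The enzymes and chaperones that build collagen went both ways. Of 15, 5 were higher in dF4, 3 lower and 7 neither (median 0.63). The procollagen processing genes Adamts2, Pcolce and Bmp1 were at 4, 3.9 and 3.1 RPKM in dF4, and at no more than 0.7 RPKM in any other library. The lysyl hydroxylase Plod2 was listed at 0 in dF4, with 7.3 and 5.8 RPKM in dF1 and 6.5 and 6.8 in wt. Among 8 niche cytokines, 1 was higher in dF4 and 0 lower (median 0.12), near the shares over all symbols (9.1% and 6.89%). Il7, the stromal cytokine of B cell precursors, was listed at 0 in dF4 and at 0.1 RPKM or less elsewhere.

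The receptors through which blood cells read these signals were measured in the same bulk libraries. Cxcr4 was at 168.1 RPKM in dF4, 166.2 and 116 in dF1 and 174.7 and 138.5 in wt, so the dF4 value lay within the range of the wt libraries while that of its ligand lay far above it. Kit was at 17.1 RPKM in dF4, 3.7 and 4.7 in dF1 and 9.9 and 5.8 in wt. Itga4 and Itgb1, which pair as the integrin that binds Vcam1, were at 56.6 and 82.4 RPKM in dF4, and at 52 to 77.8 and 83 to 135 RPKM over the dF1 and wt libraries. Of the 15 receptors, 3 were higher in dF4 (Itga9, Kit and Stab1), 2 were lower (the collagen receptors Ddr1 and Itga2) and 10 were neither, with a median of 0. Ddr1 was at 5.9 RPKM in dF4, 50.6 and 54.8 in dF1 and 59.8 and 63 in wt. Between dF1 and wt, 0 of the 91 list genes tested passed in limma, but 20 of these averaged under 1 RPKM over the dF1 and wt libraries, entered through dF4 and had little or no signal to compare.

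Markers of other cells that can carry some of these transcripts gave differing results by cell type in dF4. Over all symbols, 9.1% were higher and 6.89% lower. Of 18 macrophage markers, 15 were higher and 2 lower (median 2.52). Their sum was 306 RPKM in dF4, 198 in each dF1 library and 191 and 238 in wt. Cd68, which was lower in dF4, made up most of the dF1 and wt sums. It was at 51.4 RPKM in dF4, 181 and 169.2 in dF1 and 171.4 and 215.9 in wt. C1qb was at 49.6 RPKM in dF4, 0.9 and 2.4 in dF1 and 0.9 and 0.9 in wt. Mrc1 was at 18.8 in dF4, 0.2 and 0.7 in dF1 and 0.3 and 0.2 in wt. Spic, a factor of red pulp and marrow macrophages, was listed at 0 in dF4, and its dF1 and wt values were 0.9 RPKM or less. Of 12 endothelial markers, 3 were higher and 3 lower (median 0.06). Tie1 was at 7.3 RPKM in dF4 and listed at 0 elsewhere, and Tek and Esam were listed at 0 in all libraries. Egfl7 went the other way, listed at 0 in dF4, with 10.9 and 11.4 RPKM in dF1 and 9.2 and 4.9 in wt. So did Cdh5, at 9.7 RPKM in dF4, 63.9 and 82.6 in dF1 and 47.8 and 40.1 in wt. The 12 endothelial markers summed to 61.4 RPKM in dF4, 155 and 162 in dF1 and 146 and 141 in wt. Of 11 megakaryocyte markers, 5 were higher and 0 lower (median 0.89), with Pf4 at 19.9 RPKM in dF4 and at most 0.2 in the others, and Gp9, Gp6 and Tubb1 listed at 0 in dF4. The part of macrophages, endothelial cells, megakaryocytes and neutrophils in the dF4 values of Vcam1, Igfbp4, Sparc and Cxcl12 was not tested.

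**Figure D4:**
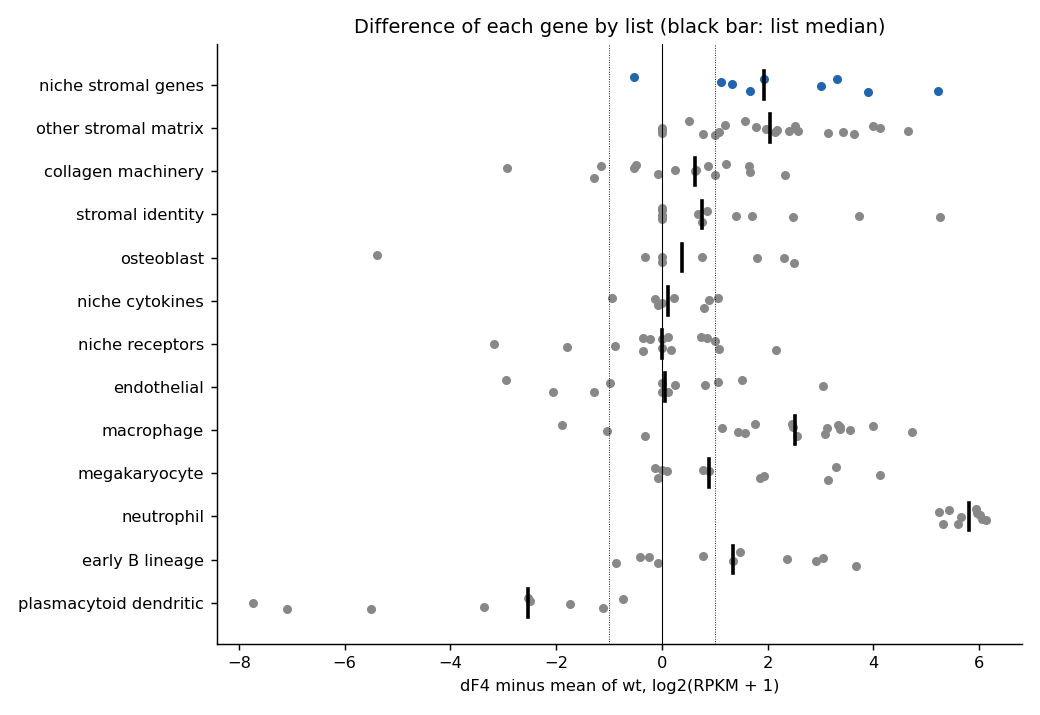
Difference between dF4 and the mean of the wt libraries on the log2(RPKM + 1) scale for each gene of the niche stromal set (blue) and of 12 context lists (grey); black bars are list medians and dotted lines mark a difference of 1. The niche stromal median of 1.93 lies close to that of the other stromal matrix list (2.05) and of macrophages (2.52), below neutrophils (5.80).

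The genes whose levels followed the members most closely over the 5 libraries were from several cell types. Likeness was the root mean square distance between log2(RPKM + 1) profiles, each centred on its own mean, and it is dominated by the dF4 value. Nearest to Cxcl12 were Ms4a1, which encodes the B cell antigen CD20 (distance 0.23), Mapk13 (0.25) and Mgp (0.29). Nearest to Igfbp4 were the matrix gene Emilin2 (0.05), Ctnnd1 (0.09) and Serpinb1a (0.14), and nearest to Vcam1 were Lmna (0.08), Sepx1 (0.08) and the B lineage factor Pax5 (0.10).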

How the data were processed

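Libraries were TruSeq preparations of RNA enriched for mRNA, per the labels. The authors deposited RPKM values per RefSeq transcript, per the file headers, with transcript length, an other measure given in bases per the file headers. TopHat, bedtools and mm9 are named in the submitters' processing notes. Their settings, whether strand was used and how reads common to several transcripts were counted are not stated there, so genes that overlap on either strand cannot be separated. The table has 1 line that names no gene, which was left out. The supplied annotation is of another build, so it gave lengths and promoter windows only.

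Values were used as log2(RPKM + 1). The dF1 and wt libraries were compared with limma 3.58.1 under R 4.3.3, using lmFit and a trended eBayes, on the 12215 transcripts that averaged 1 RPKM or more in the 5 libraries. p-values were adjusted by Benjamini-Hochberg (threshold 0.05). They reflect the spread between libraries, which may be technical. The fit was also run on simulated data, with larger changes and less spread than the members tested showed between dF1 and wt. That run does not tell whether differences of the size seen in members would be called. A gene is read by its transcript with the highest mean. Named genes are all 9 members and, from each of the 12 lists, up to 4 genes with the largest dF4 difference and genes listed at 0, and the 3 nearest profiles of a member (given for Cxcl12, Igfbp4 and Vcam1). Genes listed at 0 in dF4 alone, Bglap, Sp7, Cxcr4, Itga4, Itgb1, Il7 and Stab1 were named outside this rule after their values were seen. So were Cd68, Pdgfrb and the genes of the search across single libraries. The members and lists were chosen with earlier results of these data known. Alternatives were other pseudocounts, filters and scalings, robust variances, a replicate block, leaving out each library, dF1 in place of wt and a larger difference.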

Additional observations from a re-analysis of the deposited data

How the results depend on the processing

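The count of 0 transcripts called between dF1 and wt depended on the setting, with 245 called without the filter on low values, 25 with a mean of at least 5 RPKM and 33 with robust variances, but 0 member transcripts were called under any alternative run. The replicate numbers did not come with a stated pairing, deviations of same-numbered libraries correlated at 0.30, and with the replicate number as a block 0 transcripts were called. Leaving out a replicate, the dF1 difference ranged from -2.52 to 0.069 for Col1a1 and from -0.076 to 0.51 for Vcam1.

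Against wt, 1636 transcripts were higher in dF4 and 1576 lower. These counts were 893 and 638 with a pseudocount of 5, 838 and 937 with a mean of at least 5 RPKM, and 642 and 468 with a difference of at least 2. Of the members that pass the minimum, 5 were higher, against 8 with no filter and 3 with a mean of at least 5 RPKM. Without wt replicate 1 there were 4, since Col1a2 no longer counted. A pseudocount of 5 and a difference of at least 2 kept the same transcripts but made the rule harder to meet. Each of these left 4 members. The filters changed which transcripts were considered, and no further cause of the shifts was tested. About 2 to 10 reads lie behind Col1a1, Kitl, Col3a1 and Lepr in dF4, which limits what can be said of their size.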
